A study of Mus musculus with 10 samples.

Results

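The genes described here are the ribosomal protein genes of the developing mouse mandible and incisor, taken as every gene whose symbol begins with Rpl or Rps, without the S6 kinases (Rps6k, 10 genes) and without the 5 features named as pseudogenes (-ps). The rule found 86 of the 32285 genes in the count tables. Of these, 46 encode proteins of the large ribosomal subunit, 31 proteins of the small subunit and 8 are paralogs of such genes (Rpl3l, Rpl7l1, Rpl10l, Rpl22l1, Rpl36al, Rpl39l, Rps27l and Rps27rt). The remaining gene, Rps19bp1, encodes a protein that binds Rps19 and is not a part of the ribosome, so its name alone placed it among the members.

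A cytoplasmic ribosome is built from ribosomal RNAs and about as many proteins as there are canonical genes here, each present once in most ribosomes except for the stalk proteins Rplp1 and Rplp2. The small subunit reads the messenger RNA, and the large subunit joins the amino acids and holds the tunnel through which the new chain leaves. The messenger RNAs of these proteins are among the most abundant of a growing cell, and most begin with a short run of pyrimidines, the TOP motif, through which mTOR signalling controls their translation. Loss of a copy of single members, such as Rps19 or Rpl11, causes Diamond-Blackfan anaemia in people, and Rpl38 mutations alter the axial skeleton of mice, which is why levels of single members are compared between tissues.

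Cells came from wild type NMRI mouse embryos. The E11.5 library held whole mandibles, and those of E14.5 and of E16.5 held buds of the lower incisor (E, embryonic day), dissociated with collagenase P and sequenced from the 3′ end of polyadenylated RNA. The labels list 4, 4 and 2 samples, and the paper took each stage from more than 1 litter and processed samples individually. The barcodes of a stage carry nothing that ties them to a sample, so each stage was 1 sample and no test was possible. Library here means the 1 matrix deposited for a stage, which may pool several samples. Stage, library and, between E11.5 and E14.5, the tissue dissected cannot be told apart. The labels give no sex, and embryo sex may differ between the libraries as well (the Y-linked Ddx3y had no UMI at E11.5). Values are counts of unique molecular identifiers (UMIs, captured RNA molecules). Cells in which 700 or more genes were seen and no more than 20% of UMIs were mitochondrial were kept, 6573, 6091 and 4511 at the 3 stages, with 864 to 123785 UMIs per cell. From each cell 2000 UMIs were then drawn at random, and cells with fewer were dropped, so that every cell weighs the same. Intervals are exact, at the 95% level, and cover counting error only. The libraries shared 13 to 17 barcodes between stages, and Scrublet called 0, 0 and 2 cells doublets.

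Clusters were named from marker lists. Mesenchyme-like cells numbered 5418, 3936 and 2492 after thinning, and epithelium-like cells 836 (E14.5) and 1638 (E16.5). Most mesenchyme-like clusters had Col3a1, Prrx1 or Twist1 among their leading genes, at E16.5 only Col3a1. Cluster 4 of E11.5 and cluster 4 of E16.5 had none of these genes there. All epithelium-like clusters had Krt14 and Dsp among their leading genes, and some had Epcam. At E11.5 no cluster was epithelium-like, although the mandible is covered by epithelium. Endothelium-like cells were 129 and 117 at the later stages, erythroid-like cells 121 at E11.5 and 144 at E14.5, muscle-like cells 115 at E11.5 and immune-like cells 123 at E14.5. The filter on genes removed most globin-rich barcodes. Among the barcodes left out, 173, 1003 and 513 had over 5% globin UMIs, and all but 1 of them, at E11.5, had fewer than 700 genes. At E16.5, 69 of the cells kept had over 5% globin UMIs and no cluster was erythroid-like, whereas with a minimum of 200 genes and no mitochondrial limit a cluster of 332 cells, led by Hba-a1, Hbb-bt and Hba-a2, was. The E16.5 epithelium-like cells kept carried 1.09% globin UMIs against 0.106% at E14.5.

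The sequence around the start of transcription was taken from the RefSeq windows of GRCm38.p6, where 66 of the 86 members had a window. It is shown for some of the members whose levels are described later, from 15 bases before to 15 after the annotated start. Capitals mark a run of at least 5 C or T, counted from a C within 5 bases of the start. The letters before it can be C or T too, as for Rpl35, Rpl38, Rpl22l1 and Rps27. The whole stretch of C and T can therefore be longer and begin earlier. Runs are more frequent among the windows shown than among all members' windows.
Rpl35 (chr2:39005117-39005146, minus strand): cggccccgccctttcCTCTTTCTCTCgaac
Rpl38 (chr11:114668565-114668594, plus strand): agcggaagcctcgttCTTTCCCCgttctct
Rps26 (chr10:128626492-128626521, minus strand): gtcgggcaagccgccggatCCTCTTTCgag
Rps2 (chr17:24720048-24720077, plus strand): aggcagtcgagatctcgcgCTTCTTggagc
Rpl22l1 (chr3:28805493-28805522, plus strand): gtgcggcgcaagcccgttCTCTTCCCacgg
Rps27 (chr3:90213634-90213663, minus strand): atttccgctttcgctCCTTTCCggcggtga
Rps27rt (chr9:114982725-114982754, minus strand): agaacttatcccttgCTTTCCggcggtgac
Rpl39 (chrX:37085208-37085237, minus strand): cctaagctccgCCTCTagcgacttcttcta
Rpl39l (chr16:10170213-10170242, plus strand): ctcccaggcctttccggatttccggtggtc
Rpl36al (chr12:69184053-69184082, minus strand): cattcccgtcgctcaggttcagttccgact
Rps12 (chr10:23787195-23787224, minus strand): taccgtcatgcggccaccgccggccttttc
Rps27 and its copy Rps27rt both have a run at the start. Rpl39 has a run at its start and its paralog Rpl39l has none at the annotated position. Rpl36al and Rps12 also have none there. Other pairs differ from this pattern. Rpl36a, the partner of Rpl36al, has no run either, and Rpl22 has none in its windows while its paralog Rpl22l1 has a run.

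Such a run was found in 32 of the 78 windows of members, 41.0%, against 18.3% of the 32851 windows of all genes. In the windows of the translation elongation list it was found in 15.4% (2 of 13) and in those of the ribosome biogenesis list in 14.7% (5 of 34). Some genes have several windows. Counted by gene, with a run in any window, it was found in 45.5% of members and 21.2% of all genes. By gene it was in 28.6% of the elongation list (2 of 7) and 19.2% of the biogenesis list (5 of 26). The letters CTTCCG, on either strand of the 300-base window, were in 60.3% of members' windows and 16.9% of all windows. TATAAA, on either strand, was in 8.97% and 13.6%. CTTCCG and the run can share letters where the run ends before a G. These are descriptions of the letters near annotated starts, which can lie some bases from the starts used in these cells.

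Ribosomal protein genes were a large part of the RNA captured in every group. In mesenchyme-like cells they took 25.1% of UMIs in the E11.5 library (interval 25.03 to 25.08), 31.4% at E14.5 (31.36 to 31.43) and 29.5% at E16.5 (29.46 to 29.54). In epithelium-like cells they took 31.7% in the E14.5 and 28.5% in the E16.5 library. The E11.5 share was therefore the lowest of the mesenchyme-like shares and the E14.5 share the highest in both lineages. Endothelium-like cells had 26.9% and 25.4%, under the mesenchyme-like and epithelium-like cells of their stage. Among the lineages of E14.5 immune-like cells had the highest share, 33.0%, although mesenchyme-like cluster 1 by itself had 34.3%. Muscle-like cells of E11.5 had 25.7%, close to the mesenchyme-like cells beside them.

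Single cells spread more widely than the groups. The quartiles over mesenchyme-like cells were 23.1% and 27.5% at E11.5, 28.05% and 34.95% at E14.5 and 26.0% and 33.2% at E16.5. The quartiles over epithelium-like cells were 27.9% and 36.8% at E14.5 and 24.4% and 33.2% at E16.5. The standard deviation across cells was 3.70 percentage points in E11.5 mesenchyme-like cells, 5.19 and 5.43 at the later stages, and 7.91 and 7.63 in epithelium-like cells. Without thinning, the pooled shares were 24.6%, 31.0% and 29.0% in mesenchyme-like cells and 32.0% and 28.4% in epithelium-like cells. The plot of shares per cell shows these groups side by side.

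**Figure D1:**
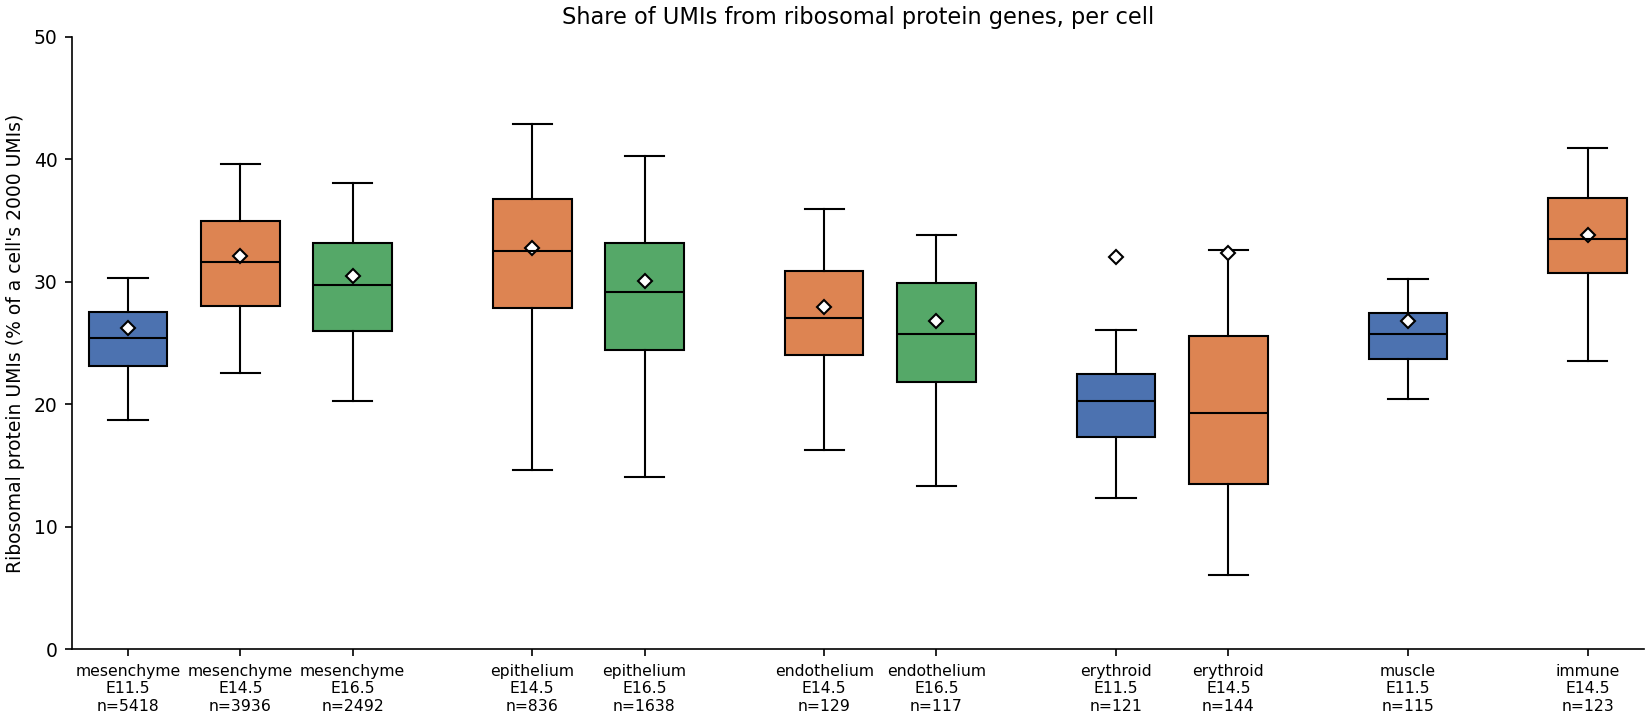
Share of a cell's 2000 UMIs (vertical axis, percent) that came from ribosomal protein genes, for each lineage and stage; boxes give the quartiles over cells, whiskers the 5th and 95th percentiles, n the thinned cells, and diamonds the pooled share after mitochondrial and globin UMIs are left out. Erythroid-like boxes sit lowest, and their diamonds lie at 32.0 and 32.4.

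Other properties of the libraries moved with the stages. In mesenchyme-like cells mitochondrial UMIs were 4.35%, 2.06% and 2.95% of all in stage order, Malat1, a nuclear RNA, 1.504%, 3.74% and 3.64%, and UMIs of the cell cycle list 0.359%, 0.231% and 0.153%. Median depth before thinning was 5691, 3250 and 5929 UMIs. The part of these in the change of share between stages was not tested beyond the following strata.

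Epithelium-like cells with more mitochondrial UMIs had a lower share of ribosomal protein UMIs. In E14.5 epithelium-like cells the share was 35.5% where mitochondrial UMIs were under 2%, 32.5% at 2 to under 5%, 21.3% at 5 to under 10% and 12.4% in the 20 cells at 10% or more. In E16.5 epithelium-like cells the same strata gave 33.7%, 29.8%, 24.1% and 14.4%, and in E11.5 mesenchyme-like cells they gave 23.4% (31 cells), 25.7%, 23.4% and 16.7%, with no steady fall. Cells rich in cell cycle transcripts also had lower shares. Mesenchyme-like cells with none of these UMIs had 26.5%, 32.9% and 30.4% at the 3 stages, and those with 6 or more had 24.4%, 28.9% and 26.1%. In every stratum of cell cycle UMIs, and in those under 5% mitochondrial UMIs, mesenchyme-like cells of E11.5 were lowest and those of E14.5 highest. At 5 to under 10% mitochondrial UMIs the order was another, at 23.4%, 24.1% (29 cells) and 25.5%. Cells with 4000 to under 8000 UMIs before thinning had 25.8%, 30.8% and 30.3%, a smaller gap between E14.5 and E16.5 than over all cells.

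**Figure D2:**
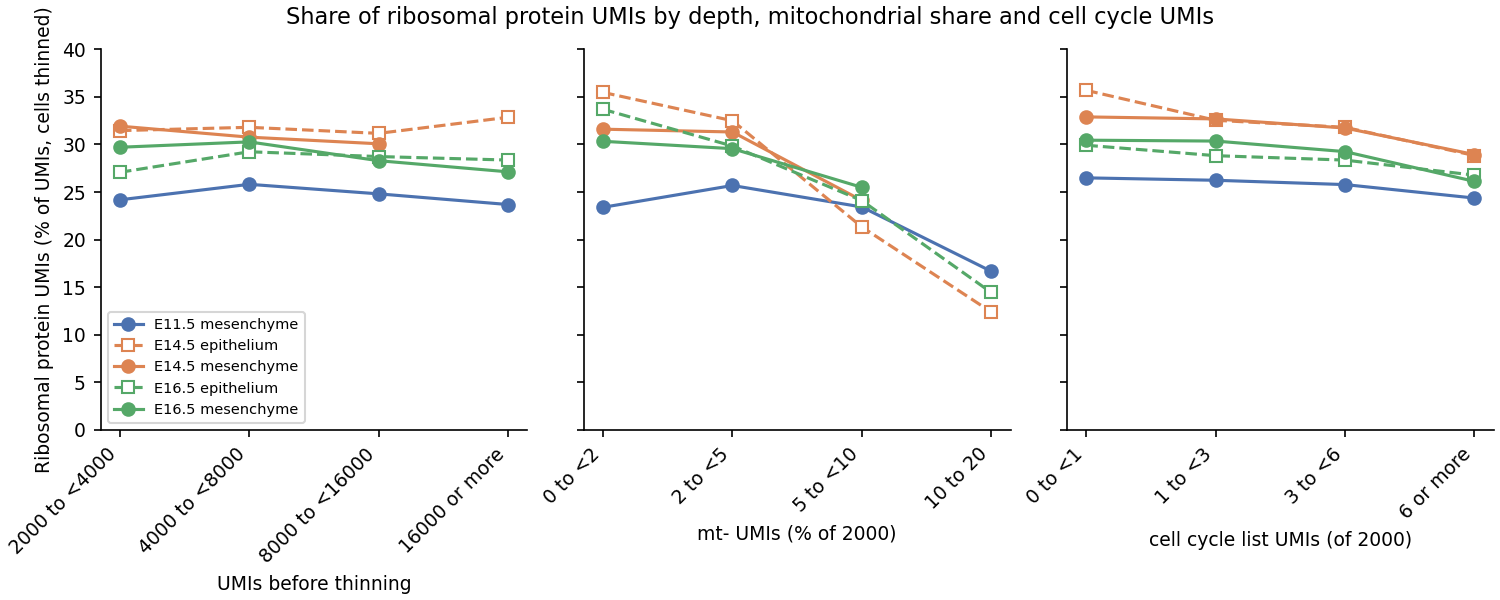
Share of ribosomal protein UMIs (vertical axis, percent) in strata of cells by UMIs before thinning, by percent of mitochondrial UMIs and by UMIs of the cell cycle list, for mesenchyme-like (filled circles) and epithelium-like cells (open squares) of each stage; strata under 20 cells are not drawn. Epithelium-like cells of E14.5 fall from 35.5 to 12.4 across the mitochondrial strata.

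Clusters of a stage also differed from each other. Among the 5 mesenchyme-like clusters of E11.5 the share ran from 20.5% to 27.1%, and the lowest was cluster 3, which had 8.48% mitochondrial UMIs against 3.77% to 3.94% in the other 4. Among the 5 of E14.5 it ran from 27.7% in cluster 4, the one with the most cell cycle UMIs (0.658%), to 34.3% in cluster 1, which had 0.0348%. Cell cycle UMIs did not order the clusters between, since clusters 5 and 6, with 0.0793% and 0.0387%, had shares of 28.8% and 29.9%, and cluster 2, with 0.289%, had 32.2%. Among the 4 of E16.5 it ran from 26.6% in cluster 6, which had 0.622% cell cycle UMIs, to 31.4% in cluster 4, which had 0.0668%, while cluster 3, with the fewest (0.0250%), had 29.6% and cluster 2, with 0.0419%, had 29.9%. Clusters 4 and 6 of E16.5 shared their leading genes Smpd3, Lum and Plac8. The epithelium-like clusters of E16.5 had 29.1%, 26.0% and 30.0%, and the lowest, cluster 5, had 6.17% mitochondrial UMIs against 3.21% and 3.98%. The part of these in the differences was not tested.

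The share was not carried by a few genes. The 5 highest members of a group together held 14.8% of members' UMIs, as a median over the 11 groups of cells. Rps29, among the highest, was at 10038 UMIs in every 1000000 of a group (CPM) at E11.5, then 8005 and 9521 in mesenchyme-like cells. Rpl41, the shortest of the ribosomal proteins, was at 7307, 8846 and 8245, Rpl6 at 7532, 8129 and 6858, and Rps28 at 6994, 6182 and 7330. Because each molecule is counted once at its 3′ end, these levels are not scaled to length. The median member was at 2709, 3572 and 3221 CPM in these 3 groups of mesenchyme-like cells. Rpl10l, known from male germ cells, had no UMI in any stage, and Rpl3l, known from striated muscle, had 5 UMIs in all cells.

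The share each member took of members' UMIs differed by less than 1.5 times between groups for most members. This range was not computed for other genes, so it does not show that members vary less than those. Over the 11 groups, 83 members had at least 1000 thinned counts, and the ratio of a member's highest to its lowest share had a median of 1.32 and was under 1.5 in 63 of them. Rps16 had the narrowest range, 1.15% to 1.35%. The widest ratios were those of the low members Rps27rt (15.3), Rps19bp1 (2.40) and Rpl7l1 (2.19). Among canonical members the widest were Rpl14, 0.655% in E16.5 endothelium-like to 1.33% in E11.5 erythroid-like cells, Rpsa, 1.21% to 2.36%, Rpl23a, 0.481% to 0.881%, Rps2, 1.04% to 1.83%, and Rplp1, 1.26% to 2.20%. The summed large subunit share over the summed small subunit share was 1.16 in mesenchyme-like cells of E11.5 and 1.21 at both later stages.

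From E11.5 to E14.5, mesenchyme-like cells gained ribosomal protein UMIs broadly. The share had a log2 ratio of 0.33 (interval 0.32 to 0.33), and 75 of the 83 members with at least 50 thinned counts had a ratio above 0. The median of members was 0.34 on the log2 scale with 10 CPM added to both levels, and that of the 10795 genes ranked was -0.11. A log2 ratio of at least 0.5 was reached by 15 members, 18.1% of them, against 10.7% of all genes. No member had -0.5 or less, where 1569 of the 10795 genes ranked did. In either direction 25.2% of all genes were past 0.5. These thresholds describe sizes, with no test behind them.

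The largest gain was in Rplp1, an acidic protein of the stalk that brings elongation factors to the ribosome, from 3155 to 5446 CPM (log2 ratio 0.79). Rpl17, near the exit of the tunnel, went from 2195 to 3741 (0.77), and Rpl23a, a docking site for targeting factors at that exit, from 1653 to 2765 (0.74). Rpl23 had 0.64, Rps12 0.65, and Rpl10, which joins late in the making of the large subunit, 0.65. Rpl39, in the wall of the tunnel, had 0.63 and Rpl5, which carries the 5S RNA into the large subunit, 0.62. Rpl35a had 0.61, Rps24 0.58, Rps27rt 0.54, Rpl34 0.53, Rps7 0.53 and Rps27a, made as a fusion with ubiquitin, 0.53. Just under the threshold were Rpl30, Rps14, Rpl13a and Rpl28, all at 0.47.

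A few members went against the rest. Rps29 fell from 10038 to 8005 CPM (log2 ratio -0.33) and Rpl35, a large subunit protein at the tunnel exit, from 3631 to 2970 (-0.29). Their clusters overlapped between the stages. Those of Rps29 ran from 8592 to 10901 CPM at E11.5 and from 7388 to 8618 at E14.5. Those of Rpl35 ran from 2843 to 3917 and from 2574 to 3332. Rps27l was at 465 and 393 (-0.24), though its clusters overlapped, at 347 to 521 CPM at E11.5 and 224 to 539 at E14.5. Divided by the sum of members, 5 members were lower by 0.5 or more on the log2 scale: Rps29 (-0.65), Rpl35 (-0.61), Rps27l (-0.55), Rpl3 (-0.53) and Rps28 (-0.50). No such count was made for other genes. At E16.5 Rps29 was back at 9521 CPM, Rpl35 was at 3113 and Rpl3 at 1499, against 1692 at E11.5.

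The size of the gain depended on the cells compared, though not its direction. In cells with 4000 to 8000 UMIs the log2 ratio of the share was 0.25 and 9 members passed 0.5. In cells with under 5% mitochondrial UMIs it was 0.29 with 14 members. In cells with fewer than 3 cell cycle UMIs it was 0.32 with 16 members. Scaled to the UMIs of genes that are not members, 37 members passed. The median of members was then 0.47, and that of all genes moved from -0.11 to -0.04. Where the members' share rises, leaving members out of the total raises the ratio of every member. Here and below, the share of all genes past 0.5 was not counted under alternative settings. The exception is erythroid-like cells with globin and mitochondrial UMIs left out of the total.

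**Figure D3:**
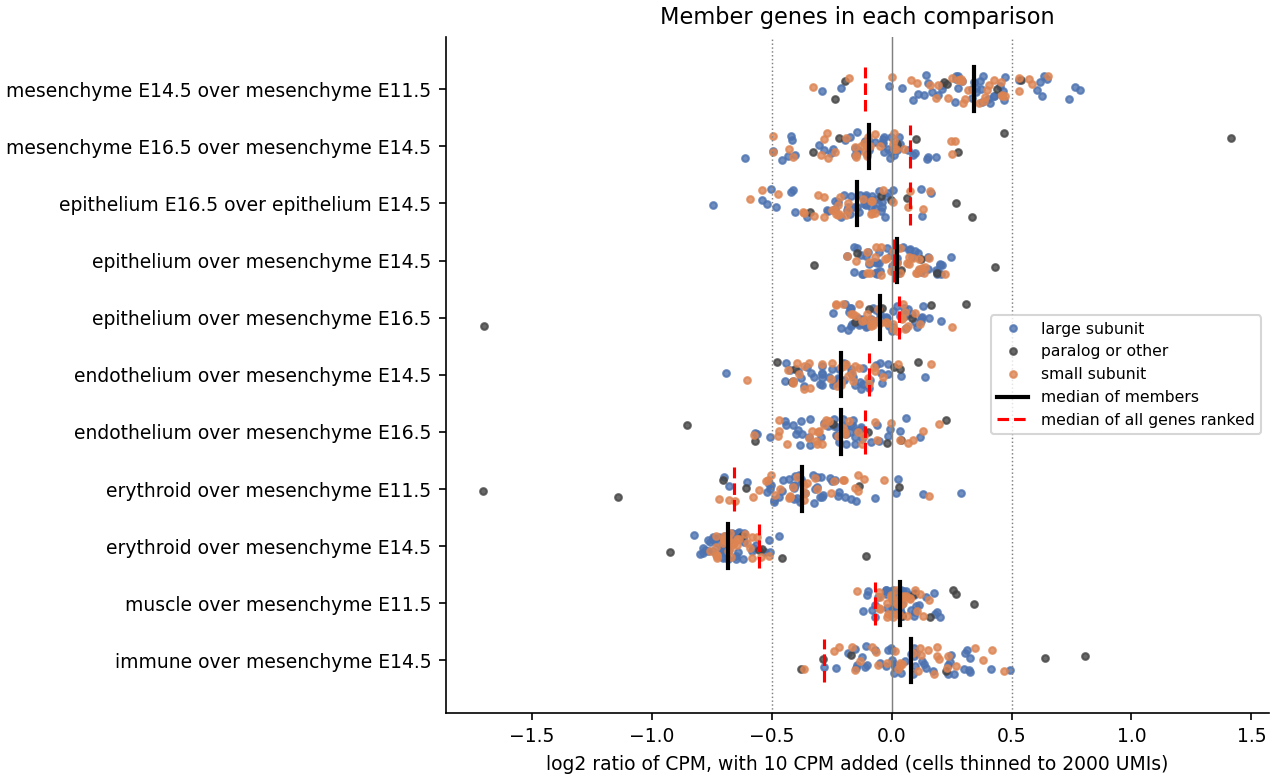
Log2 ratio of CPM with 10 CPM added (horizontal axis) for each member with at least 50 thinned counts (points, coloured by subunit) in 11 comparisons; black bars are medians of members, red dashed bars medians of all genes ranked, and dotted lines mark 0.5 and -0.5. The members' medians are 0.34 in mesenchyme-like cells from E11.5 to E14.5 and -0.68 in erythroid-like cells of E14.5.

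From E14.5 to E16.5 the share fell slightly in both lineages. The log2 ratio was -0.09 in mesenchyme-like cells and -0.15 in epithelium-like cells. Both comparisons and the one before use the E14.5 library, so a property of that library would enter all of them. The medians of members were -0.095 and -0.145, and that of all genes ranked was 0.075 in both lineages. Shares of all genes above or below 0 were not counted in any comparison. In mesenchyme-like cells 58 of 84 members were below 0, with 1 member at 0.5 or more (7.79% of all genes) and 1 at -0.5 or less (3.03%). In epithelium-like cells 71 of 83 were below 0, none reached 0.5 (10.9% of all genes) and 6, 7.23%, were at -0.5 or less (4.13%). This count moved with the cells compared, to 2 at 1000 UMIs a cell, 3 in cells with under 5% mitochondrial UMIs and 9 in cells with fewer than 3 cell cycle UMIs. In mesenchyme-like cells of 4000 to 8000 UMIs, 8 members were past the threshold in either direction, against the 2 above. In cells with 4000 to 8000 UMIs the mesenchyme-like ratio of the share was -0.02.

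Rpl23a fell most in both lineages, from 2765 to 1806 CPM in mesenchyme-like cells (log2 ratio -0.61) and from 2673 to 1589 in epithelium-like cells (-0.75). Rplp1 went from 5446 to 3859 (-0.496, just short of the threshold) and from 6264 to 4304 (-0.54). Rps12 went from 6344 to 4496 (-0.496, also just short) and from 6808 to 4512 (-0.59). Rpsa, the laminin receptor precursor, had -0.495 in mesenchyme-like cells, just short as well. In epithelium-like cells Rps25 (-0.54), Rpl5 (-0.52) and Rplp2, the partner of Rplp1 in the stalk (-0.50), were also past it. Rplp1, Rpl23a and Rps12 are thus high at E14.5 and lower at both E11.5 and E16.5 in mesenchyme-like cells. Rps12 and Rpl23a are genes for which the annotation names many processed pseudogenes, 23 and 14. Reads that match a copy equally well may be lost or assigned to it. The annotation also names many for other members, such as Rpl31 (24) and Rpl21 (15). The part of such copies in these levels was not tested.

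Some members rose from E14.5 to E16.5. The paralog Rpl22l1 went from 1348 to 1636 CPM in mesenchyme-like (0.28) and from 1219.5 to 1472 in epithelium-like cells (0.27). Rps27rt was at 56.8 and 82.5 CPM (0.47) and at 58.6 and 76.6 (0.34, interval 0.04 to 0.65). Rpl3, an early binder of the large subunit, was at 1540.1 and 1729 in epithelium-like cells (0.17). Rpl39l, at 2.54 and 23.5 CPM in mesenchyme-like cells, had the largest ratio of any member, 1.42, and is described with the paralogs.

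Epithelium-like and mesenchyme-like cells of the same stage differed little. The log2 ratio of the share was 0.013 at E14.5 and -0.051 at E16.5, and in cells with under 5% mitochondrial UMIs it was 0.10 and 0.04. Epithelium-like cells held 3.10% and 4.18% mitochondrial UMIs, against 2.06% and 2.95%. None of 83 members reached 0.5 at E14.5 in either direction, against 10.1% and 13.7% of all genes, and at E16.5 only Rpl39l did, at -1.70 from 1 UMI (interval -1.74 to -1.51), against 11.2% higher and 13.2% lower among all genes.

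Within this narrow band Rpl36al and Rps2 were among the 3 highest members at both stages and Rps15a among the 3 lowest, while the others named here were so at 1 stage each. Rpl36al was at 1119.6 CPM in epithelium-like and 828 in mesenchyme-like cells of E14.5 (0.43), and at 883 and 709.9 at E16.5 (0.31). Rps2, at the entry of the messenger RNA channel, was at 4315 and 3697 (0.22) and at 3650.2 and 3066 (0.25). Clusters of the lineages overlapped. At E14.5 Rps2 was at 4873 in mesenchyme-like cluster 2, above the epithelium-like cells, and at 2479 to 3355 in the other mesenchyme-like clusters. At E16.5 it was at 3025 to 4067 in epithelium-like and 2484 to 3568 in mesenchyme-like clusters. Rpl36al was there at 730 to 951 and at 562 to 867. Rpl38 was at 5386 and 4538 at E14.5 (0.25), and Rpl3 at 1729 and 1499 at E16.5 (0.20). At the lower end, Rps15a was at 4669 and 5309.6 (-0.19) and then at 4550.1 and 5345 (-0.23). Rpl10 was at 2156 and 2451 at E14.5 (-0.18), Rpl35a at 3551 and 4214 at E16.5 (-0.25), and Rps19bp1 at 83.1 and 106 at E14.5 (-0.32).

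Endothelium-like cells had lower levels of most members. The log2 ratio of the share against mesenchyme-like cells was -0.22 at E14.5 and -0.21 at E16.5, and 76 of 83 and 74 of 84 members were below 0. The median of members was -0.21 at both stages, and that of all genes ranked was also below 0, at -0.09 and -0.11. At -0.5 or less were 2 members, 2.41%, at E14.5 and 6, 7.14%, at E16.5, where 25.8% and 29.0% of all genes were, and none reached 0.5, against 17.3% and 17.7% of all genes. Rps26, whose loss causes Diamond-Blackfan anaemia, was at 4814 CPM against 7327 at E14.5 (-0.61) and at 4962 against 7381 at E16.5 (-0.57). Rpl23a was at 1709 against 2765 at E14.5 (-0.69) and had -0.56 at E16.5, where Rpl21 (-0.51) was past the threshold too. Rps19bp1 was at 73.6 against 106 at E14.5 (-0.48, interval -1.11 to 0.11). Rps29 and Rpl35 stood at the other end at E14.5, at 8965 against 8005 (0.16) and at 3271 against 2970.2 (0.14). Rpl36al (0.23) and Rps2 (0.20) did so at E16.5, and Rps27rt, from 16 UMIs, had 0.11 at E14.5 (interval -0.57 to 0.74). Rpl7l1 was at 51.3 against 81.1 at E16.5 (-0.57), with an interval of -1.33 to 0.14 that includes 0. Rpl39l, also past the threshold at E16.5, rested on 2 UMIs in endothelium-like cells (-0.85, interval -1.60 to 0.31). It was ranked only through its UMIs in mesenchyme-like cells. Without thinning the ratio of the share was -0.14 and -0.12, nearer to 0, and 4 and 3 members were past the threshold. Scaled to the UMIs of other genes, 12 were past it at each stage.

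Erythroid-like cells gave ribosomal protein genes 19.7% of UMIs at E11.5 and 19.8% at E14.5, log2 ratios of -0.34 and -0.67. These are the cells that passed the filter on genes. With a minimum of 200 genes and no mitochondrial limit, E14.5 held 477 thinned erythroid-like cells in place of 144 and the log2 ratio of the share was -1.90, while at E11.5 136 cells in place of 121 gave -0.37. Globin UMIs, the product of these cells, took 34.4% and 37.5% of their total, against 0.168% and 0.105% in mesenchyme-like cells. With globin and mitochondrial UMIs left out of the total, ribosomal protein genes made up 32.0% of erythroid-like and 26.2% of mesenchyme-like UMIs at E11.5 (log2 ratio 0.29), and 32.4% and 32.1% at E14.5 (0.013). At E11.5 the direction turned with the total used. At E14.5 erythroid-like and mesenchyme-like cells were then nearly level, with a median of members of -0.0048. At E11.5, 19 of 83 members were at -0.5 or less with globin in the total, 22.9% against 61.1% of all genes, and at E14.5, 80 of 83, 96.4% against 55.1%. Most of all genes are far less abundant than members. Abundant genes that are not members had a median log2 ratio of -0.66 at both stages, and members had -0.37 and -0.68. At E14.5 members were thus close to genes of like abundance. None reached 0.5 at either stage, against 4.77% and 1.68% of all genes. The E11.5 count went to 7 without thinning, to 10 with 1000 or more genes and no more than 10% mitochondrial UMIs, and to 36 scaled to the UMIs of other genes, and the E14.5 count went to 49 with that stricter filter. With globin and mitochondrial UMIs left out of the total, 9 of 83 members were at 0.5 or more at E11.5, where 13.0% of all genes were, and 2 at -0.5 or less (39.9% of all genes). At E14.5 none was past it in either direction, against 9.84% of all genes higher and 21.4% lower. The median of all genes moved with that total, from -0.66 to -0.30 at E11.5 and from -0.55 to -0.09 at E14.5.

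The make-up of the set also differed in E11.5 erythroid-like cells. Rpl14 was at 2628 CPM against 2147 in mesenchyme-like cells (0.29), Rpsa at 4653 against 4171 (0.16) and Rplp0, the base of the stalk, at 2859.5 against 2612 (0.13), although most members were lower. Relative to the sum of members, Rpl14 was higher by 0.63 and Rpsa by 0.50. Rps28 was at 4244 against 6994 (-0.72), and Rps19bp1, from few UMIs in the erythroid-like cells, at 28.9 against 75.8 (-1.14). Rps27rt was at 4.13 CPM, 1 UMI, against 36.0 (-1.70, interval -2.19 to -0.47). At E14.5 no member was past 0.5 relative to the sum of members, and all 83 were below 0 against the whole total. The lowest were Rpl22l1, at 704.9 against 1348 (-0.93), Rpl6, at 4594 against 8129 (-0.82), and Rpl4, at 562.5 against 985 (-0.80). Rpl41 (-0.47), Rpl36al (-0.46) and Rps27rt (-0.11) were the highest. The spread over E14.5 erythroid-like cells was wide, with quartiles of 13.5% and 25.6%, against 17.4% and 22.5% at E11.5.

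Muscle-like cells of E11.5 were close to the mesenchyme-like cells of their library. The log2 ratio of the share was 0.04, and none of 83 members reached 0.5 (9.60% of all genes) or -0.5 (20.2%), while 2 did with a minimum of 200 genes and no mitochondrial limit. Rps6, the substrate of the S6 kinases, was at 1096 against 1214 CPM (-0.15, interval -0.33 to 0.03), Rpl11 at 2722 against 2957 (-0.12) and Rpl22 at 2109 against 2267 (-0.10, interval -0.24 to 0.03). The paralogs Rpl7l1, at 113 against 87.1 (0.34, interval -0.22 to 0.86), Rpl22l1, at 1396 against 1157 (0.27), and Rps27l, at 557 against 465 (0.26), were the highest. Only Rpl11 and Rpl22l1 of these 6 had an interval without 0. The 6 were picked as the ends of the ranking by this ratio, and the intervals cover counting error only, so this is not a test.

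Immune-like cells of E14.5 had the highest share of the lineages, with a log2 ratio of 0.07 against mesenchyme-like cells. Mesenchyme-like cluster 1 of E14.5, at 34.3%, was above their 33.0%. Rpl36al, at 1455 against 828 CPM (0.81), and Rps27l, at 618 against 393 (0.64), passed 0.5. They are 2.41% of members, against 15.3% of all genes, and 0 members were at -0.5 or less, against 39.3%. Mesenchyme-like clusters of E14.5 held Rps27l at 224 to 539 CPM. The interval of the highest, cluster 2 (511 to 569), overlapped that of the immune-like cells (524 to 724). Without thinning 4 passed, and in cells with fewer than 3 cell cycle UMIs 6 were past it in either direction. Rpl35 was at 4191 against 2970.2 (0.495, just short of the threshold). Rpl22l1 (-0.38), Rps26 (-0.37) and Rps27rt (-0.29, interval -1.05 to 0.44) were lowest. In the 25 immune-like cells of E16.5, Rpl36al was at 1500.0 CPM.

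The paralogs differed from their partners in level and pattern. Rpl39l, best known from male germ cells, had 5, 20 and 117 thinned UMIs in mesenchyme-like cells of the 3 stages, which is 0.461, 2.54 and 23.5 CPM. In epithelium-like cells it had 1 UMI at E14.5 and 1 at E16.5 (0.305 CPM, interval 0.00773 to 1.70). All 4 mesenchyme-like clusters of E16.5 had it, at 14.9 to 34.1 CPM and in 2.55% to 5.49% of cells, while the 3 epithelium-like clusters of the same library had it in 0% to 0.117% of cells. Before thinning, the stages held 31, 70 and 413 UMIs of Rpl39l. Its partner Rpl39 was at 4481, 6935 and 7887 CPM in mesenchyme-like cells, so the paralog remained a small addition.

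Rpl22l1 was the most abundant paralog, at 1157, 1348 and 1636 CPM in mesenchyme-like cells, against 2267, 2334 and 2351 for Rpl22. The mesenchyme-like clusters of E16.5 ran from 1436 to 1821. Rpl36al was at 703, 828 and 709.9 CPM, against 1901, 2399 and 2392 for Rpl36a. Its clusters spread widely at E14.5, from 578 to 1101 among mesenchyme-like clusters, and the highest, cluster 2, led by Inhba, Prrx2 and Twist1, was close to the epithelium-like cells (1119.6). Rps27l was at 465, 393 and 399 CPM, against 3596, 4236 and 5086 for Rps27, and Rps27rt was at 36.0, 56.8 and 82.5. Reads of Rps27 and of its copy Rps27rt may not be told apart everywhere, so the level of Rps27rt is uncertain. Rpl7l1, which works in the nucleolus, was at 87.1, 74.9 and 81.1 CPM, against 1538, 1996 and 2125 for Rpl7.

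**Figure D4:**
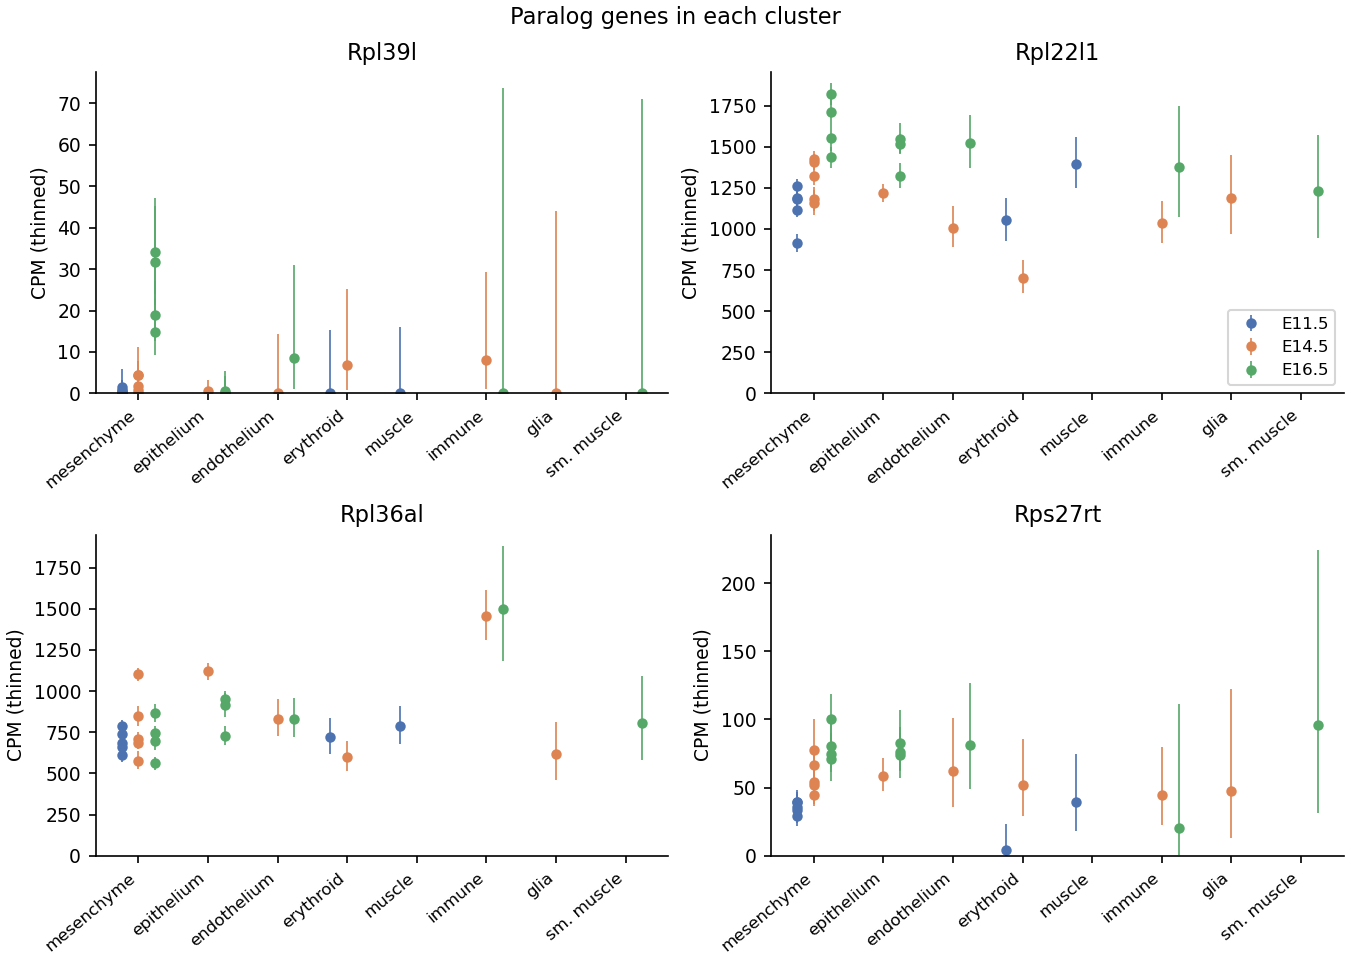
CPM (vertical axis, linear, thinned cells) of 4 paralog genes in each named cluster, grouped by lineage and coloured by stage; points are clusters and bars exact 95% Poisson intervals. Rpl39l is above 14 CPM in the 4 mesenchyme-like clusters of E16.5 and near 0 in the epithelium-like clusters.

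The 4 members on the X chromosome had a median log2 ratio of 0.54 from E11.5 to E14.5 in mesenchyme-like cells, against 0.34 for the other 79: Rpl10 0.65, Rpl39 0.63, Rps4x 0.46 and Rpl36a 0.33. The Y-linked Ddx3y had 0 UMIs among all barcodes of E11.5 and 588 and 720.0 in the later libraries. Only male cells make this transcript, so the E11.5 embryos may all have been female, and sex and stage cannot be told apart in the X-linked levels. Between epithelium-like and mesenchyme-like cells of the same library, the X-linked medians were -0.15 at E14.5 and -0.20 at E16.5, against 0.02 and -0.03 for the others.

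Other genes of translation did not all follow the ribosomal proteins. From E11.5 to E14.5 in mesenchyme-like cells, the 10 genes of the elongation list, among them Eef1a1 and Eef2, went from 1.43% to 1.52%, and none passed 0.5. Of the 10795 genes ranked, 1153 (10.7%) were at 0.5 or more and 1569 at -0.5 or less. Of 26 initiation genes 1 was at 0.5 or more and 3 at -0.5 or less, and the list went from 0.796% to 0.703%. Of 30 ribosome biogenesis genes, which process and assemble ribosomal RNA in the nucleolus, 0 were higher and 6 lower, 27 had a ratio below 0, and the list fell from 0.881% to 0.696%. Ncl (nucleolin) went from 2136 to 1415 CPM (-0.59) and Npm1 (nucleophosmin), which carries ribosomal proteins and assembling subunits, from 3403 to 2733 (-0.32). Of 78 mitochondrial ribosomal protein genes, which serve another ribosome, 1 was higher and 6 lower. Of 11 genes that regulate growth 1 was lower. The 6 of 30 biogenesis genes lower were a somewhat larger share than the 1569 of 10795 among all genes. The other counts were near or under the shares of all genes. The median of the biogenesis list was -0.29, against -0.11 for all genes.

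From E14.5 to E16.5 the biogenesis list fell further, to 0.505% in mesenchyme-like cells, with 6 of 29 ranked genes at -0.5 or less (3.03% of all genes), and from 0.806% to 0.563% in epithelium-like cells, with 11 of 29 (4.13% of all genes). The elongation list was at 1.52% and 1.56% in mesenchyme-like cells and at 1.41% at both stages in epithelium-like cells. In epithelium-like cells of E14.5 the biogenesis list held 0.806% against 0.696% in mesenchyme-like cells. Of its 29 genes 26 were above 0, where the median of all genes ranked was 0.004. At 0.5 or more were 4 of the 29, near the 10.1% of all genes. The plot of lists by stage sets the rise of the ribosomal proteins from E11.5 to E14.5 beside the fall of the biogenesis list.

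**Figure D5:**
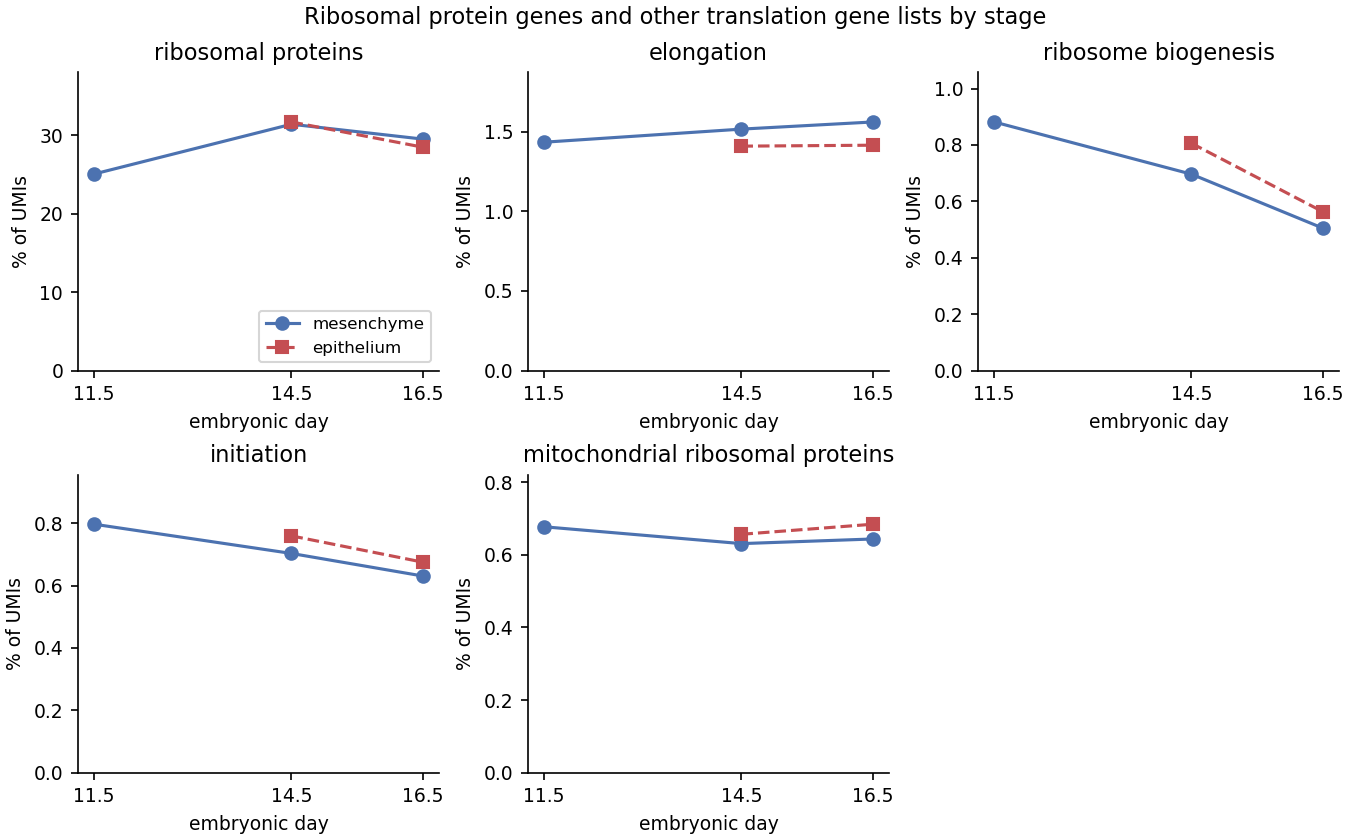
Percent of UMIs (vertical axes, from 0, thinned cells) in ribosomal protein genes and 4 other gene lists against embryonic day, for mesenchyme-like and epithelium-like cells. Each point is from the 1 matrix of a stage. Ribosomal proteins go from 25.1 to 31.4 and 29.5 in mesenchyme-like cells while ribosome biogenesis goes from 0.881 to 0.696 and 0.505.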

How the data were processed

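The authors aligned reads of 10x Genomics 3′ libraries to mm10 (reference release mm10-2020-A) with Cell Ranger 4.0.0 and deposited 1 matrix of raw UMI counts per stage, which are whole counts per gene and cell with no normalization. The 3 matrices held 8708, 8192 and 5719 barcodes and 49264075, 31670249 and 42895059 UMIs. The labels list 10 samples, but the barcodes of a stage could not be assigned to them, so no comparison has replicates or a p-value, and the intervals (exact Poisson for counts, Clopper-Pearson for shares, 95%) cover counting error only.

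The study's filter was applied (700 or more genes, no more than 20% mitochondrial UMIs). SCTransform values (package version 0.4.2 in Seurat 5.3.0) of 2000 variable genes, members and translation lists excluded, gave 20 principal components, and Leiden clustering used leidenbase 0.1.32 in R 4.3.3 with the resolution set to 0.4. The study's batch correction with Harmony was not used, since each stage was clustered alone. Clusters were named by their best marker score where it was 0.25 or more, 3 or more markers were detected, and the 10 leading genes did not hold more markers of another class. The scoring rule was set after the marker lists, and 1 cluster of E11.5, with endothelial and immune markers, stayed unnamed. Doublets were scored with Scrublet (scanpy 1.11.5), whose threshold called too few cells to be used, so no cell was removed.

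Cells were thinned to 2000 UMIs without replacement (fixed seed), and counts were summed per group with numpy 2.4.6 and scipy 1.17.1 in python 3.11.15. CPM are counts scaled to 1000000 thinned UMIs of a group. Log2 ratios have 10 CPM added to both sides, which understates the change of low genes. A gene was ranked with at least 50 thinned counts over both groups. Past the threshold means a log2 ratio of at least 0.5 in size, and the share of all ranked genes past it is given beside members for the main setting. Under the alternatives that share was counted only for erythroid-like cells with globin and mitochondrial UMIs left out of the total. The code was tested on simulated data with known answers. Named genes are, for each comparison, the 3 members highest and the 3 lowest by ratio, the 5 members with the most UMIs, the paralog pairs and Rps19bp1; others past the threshold, at the ends of the range of shares, on the X chromosome or in the other lists were named after their values were seen. Some genes that this rule names are not reported here. Members and lists were chosen with earlier results of these data known.

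Windows around gene starts are from RefSeq on GRCm38.p6, the build mm10 stands for. Chromosomes of genes and names of processed pseudogenes are from GENCODE vM21, which may differ from the authors' annotation. Alternatives were other cell filters, depths, totals, resolutions, variable genes, pseudocounts and count minimums.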

Additional observations from a re-analysis of the deposited data

Results flagged for a closer look

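The share of ribosomal protein UMIs was higher in epithelium-like than in mesenchyme-like cells at E14.5 (log2 ratio 0.013) and lower at E16.5 (-0.051), opposite directions in the libraries of the 2 stages. The difference was not tested, since each stage is 1 sample. In cells under 5% mitochondrial UMIs both ratios were above 0, at 0.096 and 0.044, and at 1000 UMIs a cell both were below 0, at -0.043 and -0.064.

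The rule leaves out the 5 features named as pseudogene copies of members (Rpl9-ps1, Rpl9-ps6, Rpl10-ps3, Rpl36-ps4 and Rpl36a-ps1). A floor of 3 UMIs was set for a single feature. Summed, the 5 features had 4804, 4999 and 6720.0 UMIs over all barcodes of the 3 stages in order of age. They equal 0.0402%, 0.0563% and 0.0575% of members' UMIs. Rpl9-ps6 held 2307, 1893 and 3271 of them, beside 126547, 98517 and 136132 for Rpl9, while Rpl9-ps1 and Rpl36-ps4 had 0 UMIs.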

How the results depend on the processing

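Each choice was changed alone, except that both other cell filters set the gene minimum and the mitochondrial limit together and that mitochondrial and globin UMIs left the total together, and none of these values has a test. The main log2 ratios of the share and counts of members past 0.5 are those given above, and a lineage named without a slash is set against mesenchyme-like cells of its stage. Of 397 share and count values under the alternatives, 257 stayed within the counting interval of the main value or within 1.5 times the main count, and the 140 that did not follow. With 1000 or more genes and no more than 10% mitochondrial UMIs, the log2 ratio of the share was 0.29 in mesenchyme E14.5/E11.5, -0.068 in mesenchyme E16.5/E14.5, -0.14 in epithelium E16.5/E14.5, 0.046 in epithelium E14.5, -0.026 in epithelium E16.5, -0.20 in endothelium E14.5, -0.25 in erythroid E11.5, -0.52 in erythroid E14.5 and 0.11 in immune E14.5, and members past 0.5 numbered 10 in erythroid E11.5 and 49 in erythroid E14.5, and members past 0.5 within the members' sum numbered 2 in epithelium E16.5/E14.5, 1 in endothelium E14.5, 2 in endothelium E16.5 and 2 in erythroid E11.5. With 200 or more genes and no mitochondrial limit, the log2 ratio of the share was -0.14 in epithelium E16.5/E14.5, -0.040 in epithelium E16.5, -0.37 in erythroid E11.5, -1.90 in erythroid E14.5, 0.052 in muscle E11.5 and 0.041 in immune E14.5, and members past 0.5 numbered 2 in muscle E11.5, and members past 0.5 within the members' sum numbered 1 in erythroid E11.5, 4 in erythroid E14.5 and 1 in muscle E11.5. At 1000 UMIs a cell, the log2 ratio of the share was 0.36 in mesenchyme E14.5/E11.5, -0.080 in mesenchyme E16.5/E14.5, -0.10 in epithelium E16.5/E14.5, -0.043 in epithelium E14.5, -0.064 in epithelium E16.5, -0.26 in endothelium E14.5, -0.37 in erythroid E11.5, -0.65 in erythroid E14.5, 0.094 in muscle E11.5 and 0.046 in immune E14.5, and members past 0.5 numbered 2 in epithelium E16.5/E14.5, 6 in endothelium E14.5 and 10 in endothelium E16.5, and members past 0.5 within the members' sum numbered 1 in mesenchyme E16.5/E14.5, 2 in epithelium E16.5/E14.5, 1 in epithelium E14.5, 3 in endothelium E16.5, 2 in erythroid E11.5 and 1 in erythroid E14.5. Without thinning, the log2 ratio of the share was 0.33 in mesenchyme E14.5/E11.5, -0.097 in mesenchyme E16.5/E14.5, -0.17 in epithelium E16.5/E14.5, 0.047 in epithelium E14.5, -0.030 in epithelium E16.5, -0.14 in endothelium E14.5, -0.12 in endothelium E16.5, -0.24 in erythroid E11.5, 0.077 in muscle E11.5 and 0.095 in immune E14.5, and members past 0.5 numbered 4 in endothelium E14.5, 3 in endothelium E16.5, 7 in erythroid E11.5 and 4 in immune E14.5, and members past 0.5 within the members' sum numbered 3 in mesenchyme E14.5/E11.5, 1 in mesenchyme E16.5/E14.5, 0 in epithelium E16.5/E14.5, 1 in epithelium E14.5 and 1 in erythroid E11.5. With mitochondrial and globin UMIs out of the total, the log2 ratio of the share was 0.29 in mesenchyme E14.5/E11.5, -0.075 in mesenchyme E16.5/E14.5, -0.12 in epithelium E16.5/E14.5, 0.029 in epithelium E14.5, -0.020 in epithelium E16.5, -0.20 in endothelium E14.5, -0.19 in endothelium E16.5, 0.29 in erythroid E11.5 and 0.013 in erythroid E14.5, and members past 0.5 numbered 11 in erythroid E11.5 and 0 in erythroid E14.5. At a Leiden resolution of 0.8, the log2 ratio of the share was -0.14 in epithelium E16.5/E14.5 and -0.039 in epithelium E16.5. Without the 5% of cells with the highest Scrublet scores, the log2 ratio of the share was -0.25 in endothelium E14.5, -0.24 in endothelium E16.5, -0.42 in erythroid E11.5, -0.75 in erythroid E14.5, 0.057 in muscle E11.5 and 0.058 in immune E14.5, and members past 0.5 numbered 4 in mesenchyme E16.5/E14.5, 5 in endothelium E14.5 and 4 in immune E14.5, and members past 0.5 within the members' sum numbered 2 in epithelium E16.5/E14.5 and 2 in endothelium E16.5. With 1 CPM added, members past 0.5 within the members' sum numbered 2 in epithelium E16.5/E14.5 and 1 in erythroid E14.5. With no minimum count, members past 0.5 within the members' sum numbered 1 in erythroid E14.5. Scaled to the UMIs of other genes, members past 0.5 numbered 37 in mesenchyme E14.5/E11.5, 5 in mesenchyme E16.5/E14.5, 12 in endothelium E14.5, 12 in endothelium E16.5, 36 in erythroid E11.5 and 4 in immune E14.5. In cells under 5% mitochondrial UMIs, the log2 ratio of the share was 0.29 in mesenchyme E14.5/E11.5, -0.084 in mesenchyme E16.5/E14.5, -0.14 in epithelium E16.5/E14.5, 0.096 in epithelium E14.5, 0.044 in epithelium E16.5, -0.19 in endothelium E14.5, -0.15 in endothelium E16.5, -0.29 in erythroid E11.5, 0.0097 in muscle E11.5 and 0.088 in immune E14.5, and members past 0.5 numbered 3 in epithelium E16.5/E14.5. In cells with fewer than 3 cell cycle UMIs, the log2 ratio of the share was 0.32 in mesenchyme E14.5/E11.5, -0.11 in mesenchyme E16.5/E14.5, -0.21 in epithelium E16.5/E14.5, 0.058 in epithelium E14.5, -0.045 in epithelium E16.5, -0.25 in endothelium E14.5, -0.25 in endothelium E16.5, -0.82 in erythroid E14.5 and 0.042 in immune E14.5, and members past 0.5 numbered 4 in mesenchyme E16.5/E14.5, 10 in epithelium E16.5/E14.5, 1 in epithelium E14.5, 8 in endothelium E14.5 and 6 in immune E14.5, and members past 0.5 within the members' sum numbered 2 in epithelium E16.5/E14.5, 1 in endothelium E14.5, 2 in endothelium E16.5, 1 in erythroid E14.5 and 4 in immune E14.5. In cells of 4000 to 8000 UMIs, the log2 ratio of the share was 0.25 in mesenchyme E14.5/E11.5, -0.023 in mesenchyme E16.5/E14.5, -0.12 in epithelium E16.5/E14.5, 0.048 in epithelium E14.5, -0.75 in erythroid E14.5, -0.029 in muscle E11.5 and 0.095 in immune E14.5, and members past 0.5 numbered 9 in mesenchyme E14.5/E11.5, 8 in mesenchyme E16.5/E14.5 and 1 in epithelium E14.5, and members past 0.5 within the members' sum numbered 7 in mesenchyme E16.5/E14.5, 3 in epithelium E16.5/E14.5, 1 in epithelium E14.5 and 1 in erythroid E14.5. For single genes, 711 of 882 values stayed within their interval, and Rpl7l1 in endothelium-like cells of E16.5, main -0.57, turned to 0.54 at 1000 UMIs a cell and to 0.21 without the highest Scrublet scores. The cause was not tested. The last 3 settings were chosen after the data were seen. Endothelium-like cells of E16.5 gave no value with the 200-gene filter or a resolution of 0.8, where no cluster took that name, and groups under 50 cells gave none in the cell cycle and depth settings. Mesenchyme-like cells kept the same sign between stages in every setting run, as did epithelium-like cells between stages. No paired analysis was possible because a stage is 1 sample, and for the same reason no replicate could be left out. Depth limits members such as Rpl39l and Rps27rt, which rest on 0 to 19 UMIs in the endothelium-like, erythroid-like, muscle-like and immune-like groups.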

Other observations

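Barcodes that the filter on genes and mitochondrial UMIs left out, 2135, 2101 and 1208 at the 3 stages, gave ribosomal protein genes 15.7%, 7.95% and 7.89% of their UMIs, against 24.6%, 30.9% and 28.6% in the cells kept. Their mitochondrial share was 15.4%, 1.51% and 1.81% and their median depth 737, 1037 and 1033 UMIs. Globin UMIs were over 5% of the total in 173, 1003 and 513 of these barcodes.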
